A study of Homo sapiens with 4 samples.

Results

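Genes of the redox, glutathione and NRF2 response were described here in U251 cells with and without knockdown of the arginine methyltransferase PRMT3. The group was a list of 46 gene symbols, matched to the gene symbols of the count table, and 43 of them had a row among the 15575 genes of the table. Expression of GPX3, GPX7 and SOD3 was not analysed here. After a filter on low counts, 42 of the 43 genes entered the test, and GSTM1 was left out with 0, 1, 5 and 1 counts in Ctrl 1, Ctrl 2, PRMT3-KD 1 and PRMT3-KD 2.

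NRF2, the protein of the NFE2L2 gene, is a transcription factor that KEAP1 holds in the cytoplasm and hands to the proteasome. When oxidants or electrophiles modify KEAP1, NRF2 enters the nucleus, pairs with small MAF proteins and binds antioxidant response elements in genes for glutathione synthesis, quinone reduction, thioredoxin recycling and iron storage, while BACH1 competes for the same elements. Glutathione peroxidases, peroxiredoxins, catalase and superoxide dismutases then remove peroxides and superoxide, and tumor cells often draw on this system to withstand oxidative load.

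RNA-seq was performed on U251, an established human glioblastoma (GBM) cell line, in 2 Ctrl libraries (the pGreen control) and 2 PRMT3-KD libraries. Cells of both groups received a lentivirus, carrying a control shRNA or a PRMT3 shRNA, and were collected after 72 h, and the hairpin used for these libraries is not named in the sources used here. Total counts were 27405629 and 27221921 in Ctrl and 24804250 and 29756313 in PRMT3-KD libraries. Nothing in the labels says whether the libraries of a group came from separate cultures, so p-values measure the spread between these libraries, which may be technical in part.

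The Ctrl libraries differed slightly more than counting error, with a chi-square of 1.42 per gene where counting error alone gives a value near 1, and the PRMT3-KD libraries differed far more, with 66.4 per gene. The median absolute log2 difference over the 42 genes was 0.041 between the Ctrl libraries and 0.21 between the PRMT3-KD libraries. Spread in the knockdown arm therefore sets the error of most values below.

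PRMT3 (ENSG00000185238, chromosome 11 of GRCh37 from 20409104 to 20530884) was counted 535 times in each Ctrl library, 77 times in PRMT3-KD library 1 and 45 times in library 2. Its log2 fold change was -3.08 (SE 0.314, adjusted p = 0.0177, edgeR, quasi-likelihood F test, Benjamini-Hochberg over 13172 genes). The target of the knockdown was thus low in both libraries labelled PRMT3-KD. With Ctrl library 1 or 2 left out, the log2 fold changes were -3.08 and -3.07 and adjusted p rose to 0.0963 and 0.0512 (edgeR).

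The labelled cell type was checked against markers. Of 8 glial or glioblastoma line markers, 7 had a row, and their summed level was 8361 and 8344 CPM on the TMM scale in Ctrl and 7331 and 7759 CPM in PRMT3-KD libraries, with VIM the most abundant. GFAP was lower in the knockdown libraries, at 363, 392, 32 and 153 counts in Ctrl 1, Ctrl 2, PRMT3-KD 1 and PRMT3-KD 2, without passing the test of edgeR (log2 fold change -2.03, adjusted p = 0.0958) but past that of DESeq2 (adjusted p = 0.00190), and its value ran from -3.44 to -1.34 with a knockdown library left out. FABP7 of the same list was likewise lower at -0.82 (adjusted p = 0.0882 by edgeR and 0.0140 by DESeq2). Hematopoietic markers were near 0, with at most 7 counts of PTPRC and 12 of CD14 in any library, and the neuronal list, led by SYT1, summed to between 14.0 and 19.3 CPM with STMN2 at 0 or 1 counts. The endothelial list, led by KDR, summed to 27.5 and 29.6 CPM in Ctrl and 19.6 and 37.9 CPM in PRMT3-KD libraries, with 1 of its 3 genes, KDR, called lower, while CDH5 had 140, 146, 129 and 722 counts and led the list in PRMT3-KD library 2 (log2 fold change 1.56, adjusted p = 0.221, edgeR). The epithelial list, led by KRT18, summed to 37.8 and 39.9 CPM in Ctrl and 85.1 and 111 CPM in PRMT3-KD libraries, with KRT8 and KRT18 called higher and CDH1 at 0, 0, 4 and 1 counts. The part of these markers in the results below was not tested. In bulk RNA, fewer cells with a transcript and less transcript per cell cannot be told apart.

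A gene was called when its adjusted p was under 0.05 and its change over 1.5-fold. Among the 42 genes tested, 0 were called higher, against 4.97% of all 13172 genes, and 1 was called lower, against 5.97%. The gene called lower was NFE2L2. At an unadjusted p under 0.05 with the same fold, 1 gene, MGST2, was higher (7.82% of all genes), DESeq2 also called MGST2 higher (6.65% of the genes it tested), and limma-voom called 0 higher. With no fold minimum, an adjusted p under 0.05 was reached by 3 of the 42 genes, NFE2L2, GCLM and NQO1, all lower, while 8.91% of all genes were lower and 8.39% higher by that rule. Changes were small in most of the group, with 40 of 42 genes (95.2%) within 1.5-fold, compared with 78.1% of all genes. The median log2 fold change was 0.10 over the 42 genes and 0.0055 over all genes, with 26 of the 42 above 0.

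Both PRMT3-KD libraries lay above both Ctrl libraries for 18 of the 42 genes and below them for 12, where 33.3% and 33.8% of all genes did so. For the other 12 genes the groups overlapped. The PRMT3-KD libraries fell on opposite sides of the Ctrl mean for 11 genes. The plot of all members shows this spread by role.

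NFE2L2 (ENSG00000116044, chromosome 2 of GRCh37 from 178083395 to 178257484, minus strand) was lower in both knockdown libraries. It had counts of 2344 and 2302 in the Ctrl pair and of 1329 and 1489 in the PRMT3-KD pair, or 84.1 ± 0.642 CPM and 52.3 ± 0.0728 CPM (SD, n = 2 libraries each). Its log2 fold change was -0.68, or 0.622 of the Ctrl level (SE 0.0700, adjusted p = 0.0177, edgeR). Relative to the Ctrl mean, PRMT3-KD library 1 stood at -0.69 and library 2 at -0.68. The libraries that differ for many other genes gave nearly the same value here. Without Ctrl library 1 or 2, when the lone Ctrl library is assumed to vary like the PRMT3-KD libraries, the log2 fold change was -0.68 and -0.69 and the adjusted p rose to 0.246 and 0.202 (edgeR). Exons of NFE2L2 share 3509 bases with exons of HNRNPA3 on the opposite strand, and whether counting used the strand is not stated in the sources used here, so reads of both genes cannot be told apart in that stretch. Exons of NFE2L2 also share 2037 bases with ENSG00000213963 on the same strand, so its level is uncertain there too. HNRNPA3 itself had 16497, 16597, 13772 and 15047 counts in the same library order, a log2 fold change of -0.16 (SE 0.0670, adjusted p = 0.161, edgeR).

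KEAP1 and BACH1, the regulators of NRF2 among the members, did not pass the test. KEAP1, the adaptor that targets NRF2 for degradation, was counted at 1953 and 2060 in Ctrl cells, then 1903 and 1465 in knockdown cells. PRMT3-KD library 2 was low and library 1 was level with the higher Ctrl library once scaled, with a log2 fold change of -0.20 (SE 0.195, adjusted p = 0.501, edgeR). Without PRMT3-KD library 2 the KEAP1 value turned to 0.04. BACH1, the repressor at NRF2 sites, had 647 and 634 counts without knockdown, next to 719 and 870 with it. Both knockdown libraries were above both Ctrl libraries, and the log2 fold change was 0.34 (SE 0.0934, adjusted p = 0.0712, edgeR). BACH1 exons share 1073 bases with GRIK1-AS2 and 302 with LINC00189 on the same strand, so its level is uncertain.

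As a ratio of counts within a library, which needs no scaling between libraries, NFE2L2 stood at 3.62 and 3.63 per BACH1 count in Ctrl and at 1.85 and 1.71 in PRMT3-KD libraries. The mean ratio in PRMT3-KD was 0.491 of that in Ctrl. Per KEAP1 count, NFE2L2 stood at 1.20 and 1.12 in Ctrl and at 0.698 and 1.016 in PRMT3-KD libraries, a mean of 0.740 of Ctrl with unlike knockdown libraries. These pairs were chosen after the values were seen, and with 2 libraries per group the smallest p of an exact permutation test is 0.333. Per kilobase of transcript in Ctrl cells, the level was 34.4 CPM for NFE2L2, 28.3 CPM for KEAP1 and 4.13 CPM for BACH1.

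Glutathione synthesis starts with glutamate-cysteine ligase, which joins a catalytic subunit, GCLC, to a modifier subunit, GCLM. The subunits lay on opposite sides of Ctrl, with GCLM past the adjusted p and GCLC short of it. GCLM (ENSG00000023909, chromosome 1 of GRCh37 from 94350755 to 94375012, minus strand) had counts of 3039 and 3044 in the Ctrl pair and of 1855 and 2215 in the PRMT3-KD pair. Each knockdown library was lower, with a log2 fold change of -0.55 (SE 0.0749, adjusted p = 0.0223, edgeR), which is under 1.5-fold. Without PRMT3-KD library 2 the value was -0.60 and GCLM was called lower, and without Ctrl library 1 or 2 adjusted p was 0.308 and 0.298 (edgeR). GCLC (ENSG00000001084, chromosome 6 from 53362139 to 53481768, minus strand) was counted at 967 and 951 in Ctrl cells, then 1315 and 1223 in knockdown cells. The knockdown pair was higher, with a log2 fold change of 0.45 (SE 0.118) that missed the threshold (adjusted p = 0.0675, edgeR, and 0.0462 by DESeq2, under 1.5-fold). GCLC exons share 529 bases with ENSG00000231683 on the same strand and 305 with GCLC-AS1 on the opposite strand, so the GCLC level and the ratio below are uncertain. GCLC counts per GCLM count came to 0.318 and 0.312 for Ctrl and to 0.709 and 0.552 for PRMT3-KD. The mean ratio was 2.00 times that of Ctrl, and between 1.75 and 2.25 times with each library left out in turn. This ratio too was chosen after the values were seen and was not tested.

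**Figure D1:**
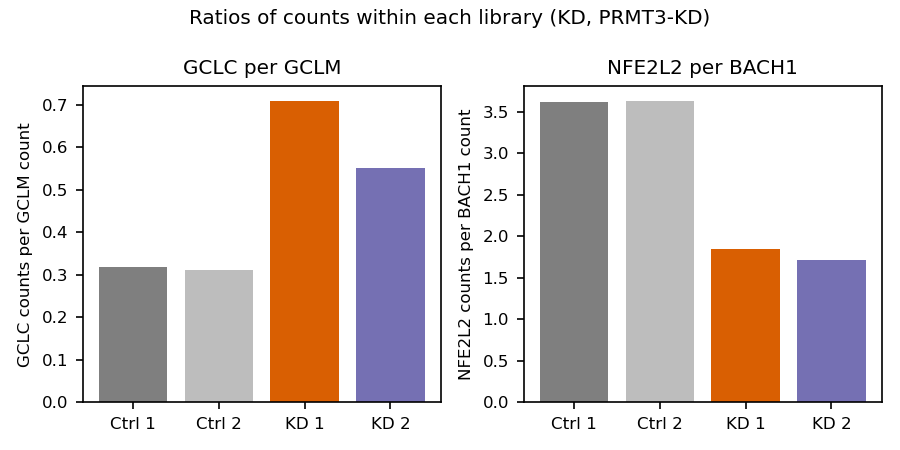
Ratio of GCLC to GCLM counts (left) and of NFE2L2 to BACH1 counts (right) within each library (y axes, counts of the first gene per count of the second, from 0; x axis, library, KD for PRMT3-KD). The PRMT3-KD bars are at 0.709 and 0.552 against 0.318 and 0.312 on the left, and at 1.85 and 1.71 against 3.62 and 3.63 on the right.

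The stretch just before the transcription start is shown for both subunit genes, since their values have opposite signs. The sequences are from RefSeq on GRCh38.p14, where members had 54 promoters of 300 bases (250 before and 50 after the start). Capitals mark TGACNNNGC, the core of the antioxidant response element, searched on both strands. It may overlap an AP-1 site, which shares its first bases. The GCLM stretch lies at chr1:93909431-93909580 and the GCLC stretch at chr6:53545102-53545251, both on the minus strand and written 5′ to 3′ in the direction of the gene.
GCLM: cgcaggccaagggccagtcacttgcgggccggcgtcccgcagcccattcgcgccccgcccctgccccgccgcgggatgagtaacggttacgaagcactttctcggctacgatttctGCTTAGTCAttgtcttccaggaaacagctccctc
GCLC: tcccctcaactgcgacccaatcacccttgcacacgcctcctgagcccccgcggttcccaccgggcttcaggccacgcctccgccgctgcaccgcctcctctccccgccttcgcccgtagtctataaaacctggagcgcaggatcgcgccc

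In GCLM the match begins at position -34 on the strand opposite to the gene, and the GCLC window of 300 bases holds no match. Matches were found in 9 of the 54 promoters of members, untested members included (16.7%), and in 8 of the 50 of tested members (16.0%). They lie in AIFM2, GCLM, GSTM1, GSTO1, GSTP1, KEAP1, MGST1 and TXNRD1, and HMOX1, GSS, GSR, MGST2, TXN2, PRDX1, PRDX6, SOD1 and FTH1 had no promoter entry and were not searched. Of all 35116 RefSeq promoters of this length 13.3% hold a match, and of the 14953 promoters of tested genes 14.2%. GSTP1 holds its match at position -66, and the windows of NFE2L2 and NQO1 hold none. These matches describe the letters in the windows, and binding was not measured. Sequence outside the windows was not searched, so GCLC, NFE2L2 and NQO1 may hold the element elsewhere. The part of the match in the opposite signs of GCLM and GCLC was not tested.

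The 3′ UTRs of at least 50 bases were searched for CAGCTCA, a sequence chosen with earlier results of these data known. Among genes with such a 3′ UTR, 33.9% of 760 called lower carry it, against 17.5% of 12619 tested. With a sequence chosen in this way, and without matching for 3′ UTR length, these shares are a description and no test. Of 41 members with a 3′ UTR of at least 50 bases, 4 (9.76%) carry it: AIFM2, GPX8, GSR and GSTM3. NFE2L2, GCLM and NQO1 have 0 copies.

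The enzymes that finish and recycle glutathione showed no call. GSS, glutathione synthetase, had 1362 and 1330 counts without knockdown, next to 1303 and 1135 with it, with a log2 fold change of -0.10 (SE 0.142, adjusted p = 0.660, edgeR). Library 1 of the knockdown was above the Ctrl libraries and library 2 below them. GSR, which reduces oxidized glutathione with NADPH, had a log2 fold change of -0.08 (adjusted p = 0.566, edgeR). Among these 4 genes, GSS had the highest level per kilobase in Ctrl (25.5 CPM), followed by GCLM (22.6 CPM) and GSR (20.3 CPM), with GCLC at 9.18 CPM.

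Among quinone, heme and growth-inhibitor genes, NQO1 reached the adjusted p threshold. NQO1 (ENSG00000181019, chromosome 16 of GRCh37 from 69740899 to 69760571, minus strand), which reduces quinones and is a standard readout of NRF2 activity, had counts of 19357 and 18847 in the Ctrl pair and of 13036 and 14821 in the PRMT3-KD pair. Levels were 692 ± 9.50 CPM and 517 ± 6.08 CPM (SD, n = 2 each), with the groups well apart. The log2 fold change was -0.42 (SE 0.0670, adjusted p = 0.0283, edgeR), or 0.748 of the Ctrl level, which is under 1.5-fold. NQO1 missed the adjusted p threshold with the replicate block (adjusted p = 0.0679) and without Ctrl library 1 or 2 (0.442 and 0.406, edgeR), at log2 fold changes between -0.44 and -0.41. Its exons share 575 bases with ENSG00000261602 on the opposite strand. HMOX1, the inducible heme oxygenase, was counted at 582 and 565 in Ctrl cells, then 708 and 528 in knockdown cells. The knockdown libraries lay on either side of Ctrl, with a log2 fold change of 0.16 (SE 0.215, adjusted p = 0.629, edgeR), which was -0.16 without PRMT3-KD library 1. OSGIN1, a growth inhibitor induced by oxidative stress, was split in the same way. It had 589 and 606 counts in Ctrl, 908 in PRMT3-KD library 1 and 511 in library 2, and its log2 fold change of 0.31 (SE 0.341, adjusted p = 0.556, edgeR) was 0.72 and called higher without library 2, and -0.27 without library 1. HMOX2, NQO2 and AIFM2, the last a ubiquinone reductase that guards against ferroptosis, lay between -0.26 (NQO2) and 0.21 (HMOX2), with adjusted p from 0.166 to 0.444 (edgeR).

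Of the 5 glutathione peroxidases listed, 3 were tested. GPX4, the selenoenzyme that reduces lipid hydroperoxides in membranes, had 5841 and 5810 counts without knockdown, next to 5596 and 7404 with it. On the TMM scale both knockdown libraries were above Ctrl, with a log2 fold change of 0.19 (SE 0.104, adjusted p = 0.262, edgeR). GPX1, the cytosolic enzyme and the most abundant per length of the 3 (286 CPM per kilobase in Ctrl, against 248 for GPX4), had counts of 7193 and 7007 in the Ctrl pair and of 6411 and 5543 in the PRMT3-KD pair. Its log2 fold change was -0.20 (SE 0.141, adjusted p = 0.358, edgeR), with library 1 just below Ctrl and library 2 further below. Its exons share 572 bases with an unnamed gene on the same strand. GPX8, a peroxidase of the endoplasmic reticulum, was at -0.06 (adjusted p = 0.571, edgeR).

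Glutathione transferases couple glutathione to electrophiles, and 9 of the 10 listed were tested. The median log2 fold change was 0.21, with 7 genes above 0 and 0 called. GSTP1, the most abundant per length at 191 CPM per kilobase in Ctrl, had 3901 and 3921 counts in Ctrl, 2089 in PRMT3-KD library 1 and 3363 in library 2. Both knockdown libraries were lower but unlike each other, and the log2 fold change was -0.50 (SE 0.188, adjusted p = 0.135, edgeR). The GSTP1 value was -0.79 without PRMT3-KD library 2 and -0.26, under 1.5-fold, without library 1. MGST2, a microsomal transferase, was counted at 214 and 184 in Ctrl cells, then 257 and 394 in knockdown cells. Its log2 fold change of 0.74 was the highest in the group (SE 0.207, adjusted p = 0.0769, edgeR, and 0.0407 by DESeq2). The MGST2 value was 0.94 without PRMT3-KD library 1 and 0.48, under 1.5-fold, without library 2. Exons of MGST2 share 252 bases with MAML3 on the opposite strand. The other 7 transferases ranged from -0.11 (GSTK1) to 0.26 (GSTM3), and reads of GSTM2, GSTM3 and GSTM4, which are close paralogs, may be split by the counting, so their values are uncertain.

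The thioredoxin system reduces protein disulfides through TXN and its NADPH-dependent reductases. TXN had 3358 and 3147 counts without knockdown, next to 2560 and 2784 with it. It was lower in both knockdown libraries, with a log2 fold change of -0.25 (SE 0.0737, adjusted p = 0.0877, edgeR), and the annotation holds 7 TXN pseudogenes. TXN was the most abundant of the 5 genes per length in Ctrl, at 160 CPM per kilobase, next to 145 for TXNRD1. TXNRD1, the cytosolic reductase, had counts of 15720 and 15149 in the Ctrl pair and of 14169 and 18617 in the PRMT3-KD pair. The groups overlapped, with a log2 fold change of 0.12 (SE 0.103, adjusted p = 0.459, edgeR). TXNIP, which binds and inhibits thioredoxin and responds to glucose, was counted at 2310 and 2231 in Ctrl cells, then 3048 and 2512 in knockdown cells. It was above Ctrl in both, with 0.54 in library 1 and 0.10 in library 2, and the fitted log2 fold change was 0.34 (SE 0.163, adjusted p = 0.207, edgeR). The mitochondrial genes TXN2 and TXNRD2 were at 0.28 and 0.19 (adjusted p = 0.126 and 0.343, edgeR).

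Peroxiredoxins remove hydrogen peroxide with electrons from thioredoxin, and SRXN1 restores them when they are overoxidized. SRXN1 had 1361 and 1311 counts without knockdown, next to 1783 and 1500 with it. Each knockdown library was higher, library 1 the more so, with a log2 fold change of 0.35 (SE 0.156, adjusted p = 0.189, edgeR). SRXN1 exons share 2292 bases with another gene on the same strand, so its level is uncertain. PRDX1, the most abundant per length at 761 CPM per kilobase in Ctrl, had counts of 20160 and 19559 in the Ctrl pair and of 16584 and 19201 in the PRMT3-KD pair. Its log2 fold change was -0.11 (SE 0.0689, adjusted p = 0.294, edgeR), with both knockdown libraries a little below Ctrl, the 1 value below 0 among the 7 genes of this role. The other 5 peroxiredoxins ranged from 0.07 (PRDX5) to 0.26 (PRDX3), with adjusted p from 0.0738 (PRDX6) to 0.712 (PRDX5, edgeR).

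Superoxide dismutases convert superoxide to hydrogen peroxide, which catalase breaks down. SOD2, the mitochondrial enzyme, was counted at 4536 and 4392 in Ctrl cells, then 4916 and 6445 in knockdown cells. The knockdown pair was higher, with a log2 fold change of 0.38 (SE 0.102, adjusted p = 0.0705, edgeR). SOD1, the cytosolic enzyme, had 4222 and 4025 counts without knockdown, next to 3347 and 4181 with it. Its groups overlapped on the TMM scale, with a log2 fold change of -0.10 (SE 0.0872, adjusted p = 0.462, edgeR) and a Ctrl level of 167 CPM per kilobase. CAT, catalase, had counts of 814 and 787 in the Ctrl pair and of 730 and 860 in the PRMT3-KD pair. These overlapped as well, with a log2 fold change of 0.03 (SE 0.0876, adjusted p = 0.861, edgeR), which was -0.01 with scaling by library totals only.

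The ferritin chains, which store iron and are NRF2 targets, had the highest levels per kilobase of the members with a transcript length. FTL was counted at 78430 and 80481 in Ctrl cells, then 58152 and 72199 in knockdown cells, with 3304 CPM per kilobase in Ctrl. Both knockdown libraries were lower, with a log2 fold change of -0.25 (SE 0.0862, adjusted p = 0.111, edgeR). FTH1 had 64967 and 65170 counts without knockdown, next to 57436 and 64208 with it, with 1959 CPM per kilobase in Ctrl. On the TMM scale its knockdown libraries were just below Ctrl, with a log2 fold change of -0.06 (SE 0.0678, adjusted p = 0.563, edgeR). FTH1 exons share 1267 bases with BEST1 on the opposite strand. The annotation holds 25 FTH1 and 16 FTL pseudogenes, so reads of both chains may have been split.

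To place these genes in their pathways, 8 further lists were counted, and 7 (4.70%) of their tested genes were called higher and 11 (7.38%) lower, shares close to the 4.97% and 5.97% of all genes, and the median log2 fold change was 0.0083. Without Ctrl library 1 or 2, 0 genes of these lists were called. The calls were unevenly placed. The lists were chosen with earlier results of these data known, and other NRF2 target genes were counted apart after the values were seen. The shares per list are therefore a description and no test of an excess. The list of other NRF2 target genes had 7 of 26 called lower (26.9%) and 0 higher, with a median of -0.10. SQSTM1, which was called higher, was counted among the network genes and not in this list, so the 0 depends on that placement. The list of other NRF2 network genes had 2 of 14 called higher (14.3%) and 0 lower, with a median of 0.03.

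The 7 NRF2 target genes that fell span several functions. AKR1B10, an aldo-keto reductase that is a sensitive NRF2 target, had counts of 147 and 163 in the Ctrl pair and of 35 and 50 in the PRMT3-KD pair, with a log2 fold change of -1.83 (SE 0.222, adjusted p = 0.0200, edgeR). SLC7A11, the cystine transporter that supplies cysteine for glutathione, was counted at 7956 and 7833 in Ctrl cells, then 5187 and 4715 in knockdown cells, with a log2 fold change of -0.63 (SE 0.120, adjusted p = 0.0376, edgeR). ABCC2, an exporter of glutathione conjugates, had 1945 and 2026 counts without knockdown, next to 806 and 1279 with it, with a log2 fold change of -0.91 (SE 0.185, adjusted p = 0.0421, edgeR). These 3 genes were lower in both knockdown libraries, and SLC7A11 missed the threshold with scaling by library totals only (adjusted p = 0.0565, edgeR). The leukotriene receptor gene LTB4R, the ubiquitin ligase gene TRIM16, its relative TRIM16L and the aldehyde reductase gene AKR1A1 were called at -1.26, -0.78, -0.95 and -0.67 (adjusted p = 0.0359, 0.0258, 0.0192 and 0.0314, edgeR), with both knockdown libraries below Ctrl each time. TRIM16 and TRIM16L are close paralogs, and LTB4R exons overlap those of LTB4R2, so reads may have been split or shared. The highest value of the list was that of ABCC5, at 0.58 (adjusted p = 0.0263, edgeR), just under 1.5-fold. These calls did not hold without Ctrl library 1 or 2. With a PRMT3-KD library left out, the size of the changes differed by gene. AKR1A1 was at -0.56 without library 1 and SLC7A11 at -0.49 without library 2, both under 1.5-fold. Values of genes outside the 7 also depended on the library left out. SLC3A2, at -0.013 with all libraries, was at -0.80 without library 1 and at 0.49 without library 2. AKR1B1 was at -0.26 without library 1 and at -0.90 without library 2. UGDH was at -0.58 without library 1 and at -1.275 without library 2.

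In the NRF2 network, SQSTM1 and BTRC rose. SQSTM1, or p62, an autophagy receptor that binds KEAP1, had counts of 12436 and 12529 in the Ctrl pair and of 32306 and 26365 in the PRMT3-KD pair. Each knockdown library was far above Ctrl, with a log2 fold change of 1.28 (SE 0.169, adjusted p = 0.0212, edgeR), and its exons share 1582 bases with MRNIP on the opposite strand. BTRC, the substrate receptor of a ubiquitin ligase that targets NRF2 apart from KEAP1, was counted at 847 and 852 in Ctrl cells, then 1555 and 1714 in knockdown cells. Its log2 fold change was 0.98 (SE 0.0762, adjusted p = 0.0142, edgeR). Without Ctrl library 1 or 2, adjusted p was 0.162 and 0.114 for SQSTM1 and 0.166 and 0.132 for BTRC (edgeR), with log2 fold changes between 0.97 and 1.29. MAFK, a small MAF partner of NRF2, was higher by under 1.5-fold, at 0.52 (adjusted p = 0.0225, edgeR), while CUL3 and RBX1, which form the ligase with KEAP1, were at -0.35 and -0.47 with adjusted p of 0.0532 and 0.0543 (edgeR).

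The other lists held 1 to 3 calls each or 0. Among 18 NADPH producers tested, PGD, of the oxidative pentose phosphate pathway, and MTHFD2L were called lower, at -0.97 and -0.66 (adjusted p = 0.0492 and 0.0308, edgeR). PGD had 5720 and 5719 counts in Ctrl, 2125 in PRMT3-KD library 1 and 3630 in library 2, and it missed the threshold with RLE factors (adjusted p = 0.0518, edgeR). Among 20 other glutathione genes, GGCT, which releases oxoproline from gamma-glutamyl amino acids, was called lower at -0.92 (adjusted p = 0.0415, edgeR) and missed with library totals only (adjusted p = 0.0580, edgeR). CTH, which makes cysteine from cystathionine, had 195, 162, 282 and 797 counts, so its log2 fold change of 1.60 rested mainly on PRMT3-KD library 2 (adjusted p = 0.0877, edgeR). Among 19 iron handling genes 0 were called by edgeR, with IREB2 at 0.38 and PCBP1 at -0.51 past the adjusted p but under 1.5-fold (adjusted p = 0.0417 and 0.0227).

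Of 16 genes of selenoprotein synthesis and other selenoproteins, 2 (12.5%) were called higher and 1 lower. SECISBP2, which recodes the selenocysteine codon, was called higher at 0.65 and PSTK, which makes the precursor of its charged tRNA, was called lower at -0.995 (adjusted p = 0.0208 and 0.0243, edgeR). SELENOP, at 5, 11, 46 and 57 counts, was called higher, with a log2 fold change of 2.70 (adjusted p = 0.0270, edgeR) that was 2.24 without Ctrl library 1 and 3.37 without Ctrl library 2 (adjusted p = 0.240 and 0.126), and its exons overlap those of CCDC152 on the opposite strand. Of 9 NADPH oxidase and reductase genes, 2 (22.2%) were called higher, among them CYB5R2 at 1.47 (adjusted p = 0.0243, edgeR). ARRDC4, a relative of TXNIP, was called higher at 0.64 among 27 other thioredoxin-fold and repair genes (adjusted p = 0.0426, edgeR), and missed with the replicate block (adjusted p = 0.0549, edgeR).

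**Figure D2:**
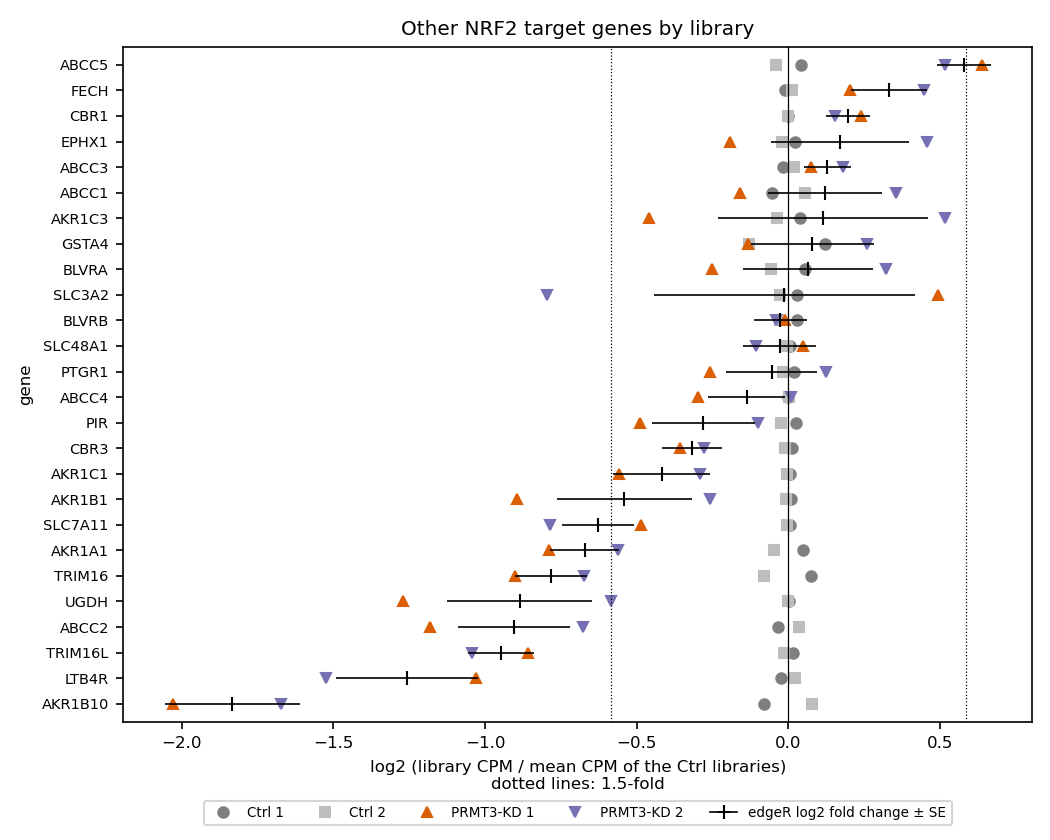
Log2 ratio of each library's CPM to the mean CPM of the Ctrl libraries (x axis) for the 26 tested genes of the list of other NRF2 targets (y axis), with circles and squares for Ctrl 1 and 2, triangles pointing up and down for PRMT3-KD 1 and 2, and black bars for the edgeR log2 fold change ± SE. The 7 called genes, from SLC7A11 at -0.63 to AKR1B10 at -1.83, have both PRMT3-KD libraries left of both Ctrl libraries, while SLC3A2 has its PRMT3-KD libraries on opposite sides.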

How the data were processed

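RNA-seq libraries of U251 cells were aligned by the authors to hg19 with TopHat, and gene read counts were made with Cufflinks; the processing notes also name CASAVA and DESeq2. Versions, the gene annotation, strand handling and gene filters are not given in the sources used here. The deposited values are whole-number counts per gene without normalization, 1 column per library, and were used as deposited after 1 duplicate row of 15576 was removed.

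The test was that of edgeR 4.0.16 in R 4.3.3 (filterByExpr with minimum count 10 and minimum total 15, TMM, glmQLFit and glmQLFTest, Benjamini-Hochberg adjustment over 13172 genes). TMM factors lay between 0.955 and 1.02. The standard error is the log2 fold change divided by the root of F. Levels between genes are CPM per kilobase of the GENCODE 44 canonical transcript, which was matched for 99.9% of genes but not for SOD2. Exon overlaps and pseudogenes are also those of GENCODE 44, and the annotation used for the counts may hold other exons. Alternatives were DESeq2 1.42.0, RLE and upper-quartile factors, library totals, other filters, limma-voom (limma 3.58.1) with group weights, a replicate block, other thresholds and leaving out each library. Tables and figures were made in Python 3.11.15.

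Values are given in full for members called, for 14 well-known members of the NRF2 axis, and for the most abundant member per length of each role. Of the other lists, each called gene is named, up to 5 per direction by size, and genes named beyond this rule were chosen after their values were seen. Members and lists were chosen with earlier results of these data known.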

Additional observations from a re-analysis of the deposited data

How the results depend on the processing

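With DESeq2, other factors, other filters, limma-voom with group weights and the replicate block, NFE2L2 was the 1 member called lower each time, and the number of genes called in all lay between 1275 (library totals only) and 1834 (DESeq2), against 1441. DESeq2 called 1 member higher (MGST2) in place of 0. Of the other redox list genes, 18 were called, with 15 to 24 under these settings. With no fold minimum, 2278 genes in all and 3 members were lower or higher by adjusted p, the members all lower, and at 2-fold the numbers were 512 genes in all, 0 members, 6 genes of the other redox lists and 2 other NRF2 target genes.

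Leaving out each library in turn leaves a group with 1 library, which is assumed to vary like the other group. The number of genes called ranged from 0 (without Ctrl 1) to 3068 (without PRMT3-KD 1), members called higher from 0 to 1, members called lower from 0 to 3, genes called of the other redox lists from 0 to 35 and other NRF2 target genes called lower from 0 to 8. The spread then comes from the PRMT3-KD pair or from the Ctrl pair alone, and these pairs had biological coefficients of variation of 0.204 and 0.0107. The log2 fold change of PRMT3 ranged from -3.61 to -2.68, that of NFE2L2 from -0.69 to -0.68, the median of the members from 0.033 to 0.12 and the ratio of GCLC to GCLM counts from 1.75 to 2.25 times that of Ctrl, a ratio added after seeing the data, as was the separate count of other NRF2 targets. Of the 42 members tested, 11 changed sign with a library left out: KEAP1 from -0.50 to 0.039, HMOX1 from -0.16 to 0.42, OSGIN1 from -0.27 to 0.72, GSS from -0.29 to 0.068, GSR from -0.18 to 0.0014, GSTM2 from -0.14 to 0.52, GSTM4 from -0.13 to 0.28, TXNRD1 from -0.0081 to 0.23, PRDX2 from -0.11 to 0.29, PRDX5 from -0.088 to 0.20 and CAT from -0.018 to 0.062. CAT also changed sign with library totals only, at -0.0070. The cause was not tested.

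The fit with the replicate number as a replicate block called 1464 genes, with 1 member lower and 0 higher. The replicate numbers share no stated batch, and the differences between replicates 1 and 2 of the groups had a correlation of 0.022 across genes.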
